A study of Mus musculus with 3 samples.

Results

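VL30, MuLV and MuRRS are murine elements of gammaretroviral type. Their RNA was followed here through 8 repeat names in 3 RNA immunoprecipitation libraries of mouse hippocampus. Names were chosen by their spelling: every listed name that begins with MMVL30, MuLV, MuRRS or RLTR4_, and RLTR6 when "_", a hyphen or nothing follows it. This gave 8 of the 18484 names in the count tables. MuLV was represented by RLTR4_MM-int, MuLV-int and the long terminal repeat (LTR) RLTR4_Mm. VL30 was represented by MMVL30-int, RLTR6-int and the LTR RLTR6_Mm. MuRRS was represented by MuRRS-int and MuRRS4-int, and no LTR name of MuRRS fell under the spelling rule. The suffix -int marks the internal, formerly coding part of an element, so 6 names were internal and 2 were LTRs.

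A provirus of this kind is an internal region with viral coding sequence, intact or decayed, between 2 LTRs. Transcription starts in the upstream LTR and ends in the downstream one, and recombination between the LTRs often leaves a solitary LTR in the genome. MuLV (murine leukemia virus) proviruses have gag, pol and env genes. VL30 elements are retrotransposons that do not code for working viral proteins but are packaged by MuLV particles. MuRRS (murine retrovirus-related sequences) are old, defective relatives. RNA from endogenous retroviruses has been proposed as a source of left-handed, Z-form double-stranded RNA, the ligand of the sensor protein ZBP1.

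Per the labels, all mice were 9 months old and on a C57BL/6 background, and TRIzol was used on the precipitated RNA. One library was a ZBP1 antibody pull-down from PS19 mice, a line with a mutant human tau transgene. Another was a pull-down of Z-form nucleic acid (ZNA) from PS19 mice, and the last used the ZNA antibody on wild-type (WT) mice. The promoter of the transgene, and whether a library pools mice, are not given in the sources used here. There was 1 library per group, so no value has a replicate error, and every interval below is a 95% interval for counting error alone. No input, isotype-control or WT ZBP1 library was used here. The tables hold repeat names and no genes, so the labelled tissue was not checked against marker genes.

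Depth on repeat names was 1425383 (PS19 ZBP1), 2918985 (PS19 ZNA) and 3234786 reads (WT ZNA). Reads outside the 2 ribosomal RNA names LSU-rRNA_Hsa and SSU-rRNA_Hsa made up 5.22%, 10.6% and 4.49% of these libraries. Each level is therefore given on 2 scales. CPM is reads per 1000000 reads on all repeat names. The other scale is reads per 100000 reads outside rRNA. A count of 0 allows up to 3 reads, which are 2.10, 1.03 and 0.927 CPM in PS19 ZBP1, PS19 ZNA and WT ZNA. A repeat name pools all copies of that repeat, so no genome position or strand belongs to a value, and levels of different names are not adjusted for length.

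Nearly all reads of the 8 names lay on a single one, RLTR4_MM-int, the internal region of a MuLV-type provirus. Together they held 326 reads in PS19 ZBP1, 1834 in PS19 ZNA and 632 in WT ZNA. RLTR4_MM-int took 92.6% of them in PS19 ZBP1 (95% Wilson interval 89.3 to 95.003%), 95.1% in PS19 ZNA (94.0 to 96.0%) and 96.2% in WT ZNA (94.4 to 97.4%). MMVL30-int, the internal region of VL30, was the only other name with 20 or more reads over the 3 libraries. Any pooled value over the 8 names is thus close to a value of RLTR4_MM-int.

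RLTR4_MM-int had 302 reads in PS19 ZBP1, 1744 in PS19 ZNA and 608 in WT ZNA. These were 211.9 CPM (189 to 237), 597.5 CPM (570 to 626) and 188.0 CPM (173 to 204). On the CPM scale the PS19 ZNA library was the highest and its interval lay clear of the others, while those of the ZBP1 and WT ZNA libraries overlapped. Per 100000 reads outside rRNA, RLTR4_MM-int had 406 reads in PS19 ZBP1 (361 to 454), 565 in PS19 ZNA (539 to 592) and 418 in WT ZNA (386 to 453). The PS19 ZNA library was again the highest, and the remaining pair was close: the ZBP1 library stood at 0.970 of WT ZNA on this scale (0.842 to 1.11). Both genotype and antibody differ between that pair.

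MMVL30-int had 9 reads in PS19 ZBP1, 54 in PS19 ZNA and 15 in WT ZNA. These were 6.31 CPM (2.89 to 12.0), 18.5 CPM (13.9 to 24.1) and 4.64 CPM (2.60 to 7.65). The order of the libraries was led by PS19 ZNA, as for RLTR4_MM-int, and the ZBP1 and WT ZNA intervals overlapped. Per 100000 reads outside rRNA the levels were 12.1 (5.53 to 22.9), 17.5 (13.1 to 22.8) and 10.3 (5.78 to 17.0), and all 3 intervals overlapped.

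The other 6 names were at or near the limit of detection. MuLV-int, the second internal name of MuLV, had 0 reads in all 3 libraries, for which the limits of a 0 count given above hold. RLTR4_Mm, the MuLV LTR, had 2 reads in PS19 ZBP1, 7 in PS19 ZNA and 1 in WT ZNA. RLTR6_Mm, the VL30 LTR, had 3, 6 and 1 reads in the same order. RLTR6-int, the second internal name of VL30, had 2, 9 and 0 reads. In these 3 names the PS19 ZNA library held the most raw reads and the WT ZNA library the fewest. Per 100000 reads outside rRNA the order of the PS19 libraries differed. The ZBP1 library was above PS19 ZNA for RLTR4_Mm (2.69 against 2.27) and RLTR6_Mm (4.03 against 1.94), and below it for RLTR6-int (2.69 against 2.92). All these intervals overlapped. MuRRS-int had 2, 7 and 5 reads, and MuRRS4-int had 6, 7 and 2 reads. Per 100000 reads outside rRNA, MuRRS4-int was highest in the ZBP1 library, at 8.06 against 2.27 in PS19 ZNA and 1.38 in WT ZNA. Its intervals overlapped, at 2.96 to 17.5, 0.912 to 4.67 and 0.167 to 4.97.

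**Figure D1:**
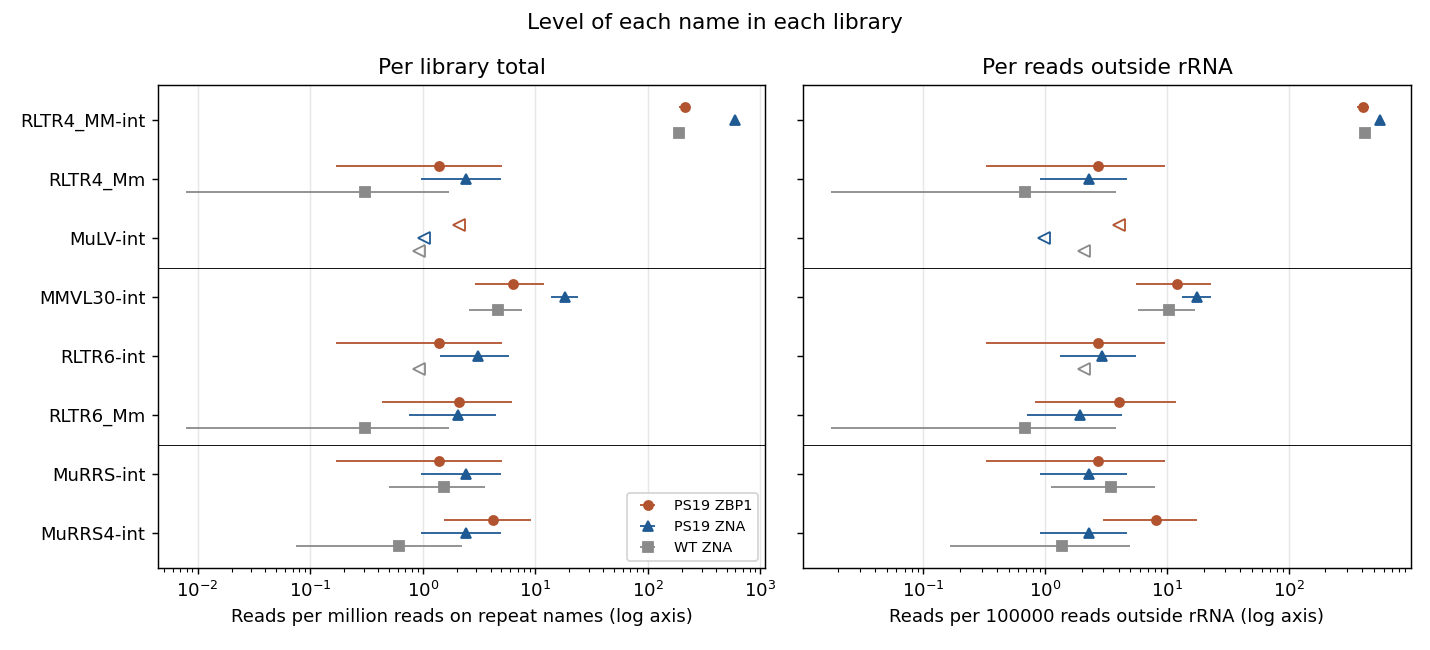
Level of each of the 8 names in the 3 libraries, as CPM (left) and as reads per 100000 reads outside rRNA (right), both on log axes. Filled marks are single libraries with exact 95% counting intervals, and open triangles stand at 3 reads, the limit for a count of 0. RLTR4_MM-int lies far to the right of the other names, and the triangles show MuLV-int without a read in each library and RLTR6-int without a read in WT ZNA.

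Internal names were then set against LTR names within each library, a ratio that does not depend on library scaling. All internal members over both LTR members gave 321 to 5 reads in PS19 ZBP1, 1821 to 13 in PS19 ZNA and 630 to 2 in WT ZNA. The ratios were 64.2 (27.2 to 199), 140.1 (81.7 to 264) and 315 (86.8 to 2607). Every library held far more internal than LTR reads, and the intervals of the 3 libraries overlapped. Between PS19 ZNA and WT ZNA the ratio of these ratios was 0.445 (0.0486 to 1.97). Between PS19 ZBP1 and PS19 ZNA it was 0.458 (0.152 to 1.65). Both intervals include 1 and are wide, because the LTR side rests on 2 to 13 reads. A difference of internal against LTR reads between libraries was not detectable at this depth.

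MuLV had the higher ratio of internal to LTR reads of the 2 families, clear of VL30 by counting error in both PS19 libraries. In PS19 ZNA the MuLV names gave 1744 internal to 7 LTR reads, a ratio of 249 (121 to 621). The VL30 names gave 63 to 6 reads in that library, a ratio of 10.5 (4.56 to 29.7), and the 2 intervals did not overlap. In WT ZNA the MuLV ratio was 608 (109 to 24054) and the VL30 ratio 15 (2.31 to 631), each on 1 LTR read. In PS19 ZBP1 they were 151 (41.4 to 1253) and 3.67 (0.969 to 20.5). The intervals overlapped in WT ZNA and not in PS19 ZBP1. Internal regions are several times longer than LTRs, and no length adjustment was possible here.

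In other retroviral families the same ratio was lower than in MuLV. In PS19 ZNA it was 4.07 (3.67 to 4.52) for the IAP names, 5.57 (4.52 to 6.91) for ETn/MusD and 12.2 (10.2 to 14.6) for MERVL with its LTR MT2_Mm. For GLN, another class I family, MMERGLN-int had 20 reads and MMERGLN_LTR 31 in PS19 ZNA, a ratio of 0.645 (0.349 to 1.17). The interval of MuLV lay above those of the 4 families in PS19 ZNA, and also in PS19 ZBP1 and WT ZNA. The interval of VL30 overlapped that of MERVL in each library. How reads that map to several copies were shared between an LTR and its relatives is not given in the sources used here, and its part in these ratios was not tested.

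**Figure D2:**
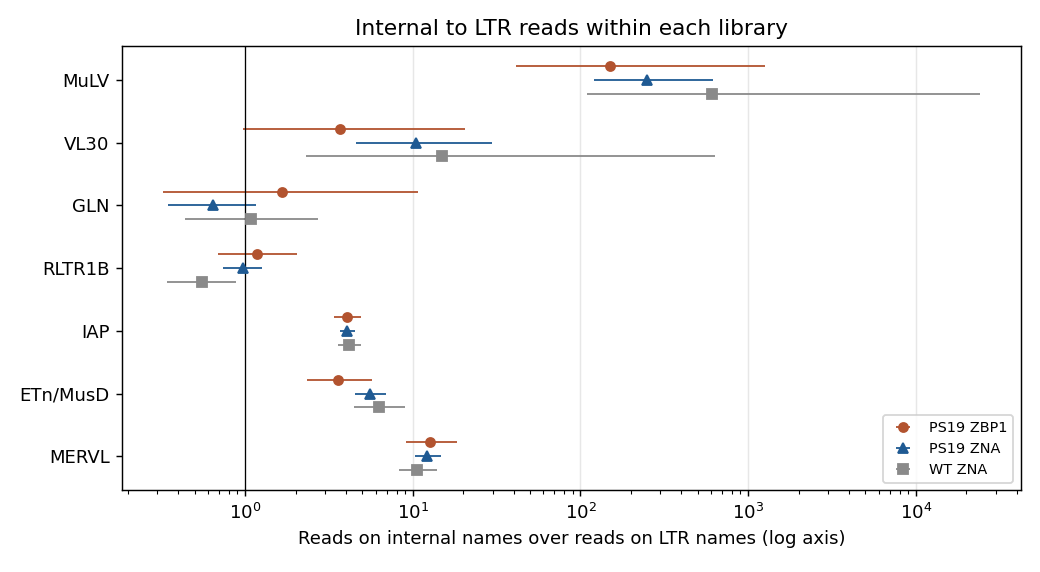
Reads on internal names divided by reads on LTR names, by family and library, on a log axis. Marks are single libraries, bars are exact 95% counting intervals, and the vertical line marks a ratio of 1. The 3 MuLV marks lie between 151 and 608, to the right of every other family, and their bars are wide because RLTR4_Mm had 1 to 7 reads.

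LTR names related to VL30 and to MuRRS were looked at outside the spelling rule. No relative of the MuLV LTR RLTR4_Mm was added, so the MuLV ratio had no such check. RLTR6B_Mm and RLTR6C_Mm, names related to the VL30 LTR, together had 2 reads in PS19 ZBP1, 33 in PS19 ZNA and 14 in WT ZNA. They thus held more LTR reads than RLTR6_Mm in both ZNA libraries, though not in the ZBP1 library. With them on the LTR side, the VL30 ratio was 2.20 (0.705 to 8.08), 1.62 (1.07 to 2.47) and 1 (0.456 to 2.20). LTRIS names, the LTR family linked to MuRRS, had 85, 314 and 129 reads over 9 names. The 2 MuRRS names had 8, 14 and 7 reads, so MuRRS stood at 0.0941 (0.0394 to 0.194), 0.0446 (0.0241 to 0.0759) and 0.0543 (0.0214 to 0.115) of its LTRIS names. MuRRS with LTRIS was hence an LTR-rich set in all 3 libraries, whereas the MuLV names were rich in internal reads. The LTR sides are unlike, 9 LTRIS names for MuRRS and RLTR4_Mm alone for MuLV, so the 2 ratios are not on equal terms.

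The ZNA pull-down was available from both genotypes, and the PS19 library was set against the WT library first. RLTR4_MM-int was 3.18-fold higher in PS19 per library total (95% exact interval 2.90 to 3.49). Per reads outside rRNA it was 1.35-fold higher (1.23 to 1.48). MMVL30-int was 3.99-fold higher per library total (2.22 to 7.61) and 1.70-fold higher per reads outside rRNA (0.943 to 3.24), the latter with an interval that includes no change. The 3 VL30 names pooled, 69 against 16 reads, were 4.78-fold higher per library total (2.74 to 8.82) and 2.03-fold higher per reads outside rRNA (1.17 to 3.75). On both elements the difference was smaller once rRNA was set aside. In such bulk tissue, a change in the number of cells that make an RNA and a change in RNA per cell cannot be told apart. Without an input library, neither can be told apart from a change in the share of the RNA that was precipitated.

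Sparse names gave wide intervals in this comparison. RLTR6-int had 9 reads in PS19 and 0 in WT. With the 3-read limit put in for WT, its ratio per library total was 3.32. The exact 95% interval begins at 2.19-fold on that scale and at 0.9298 per reads outside rRNA, where it includes no change. RLTR4_Mm was 7.76-fold higher per library total on 7 and 1 reads (0.997 to 349.6), and RLTR6_Mm 6.65-fold on 6 and 1 reads (0.807 to 306). The 2 MuRRS names pooled, on 14 and 7 reads, were 2.22-fold higher per library total (0.837 to 6.49) and 0.942 of WT per reads outside rRNA (0.356 to 2.76). For RLTR4_Mm and RLTR6_Mm taken singly, and for the pooled MuRRS names, both scales leave no detectable difference at this depth. For RLTR6-int the scale outside rRNA leaves none. The 2 LTR names pooled, on 13 and 2 reads, were 7.20-fold higher per library total (1.63 to 65.7). Per reads outside rRNA they were 3.06-fold higher (0.693 to 27.9), with an interval that includes no change.

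All names of the tables were compared with the same rule: a mean of at least 1 CPM, at least 20 reads over both libraries, and the log2 ratio of CPM with 1 added as pseudocount. On this log2 scale differences of low names are understated. Only RLTR4_MM-int and MMVL30-int of the 8 members passed the filter. Per library total both were at least 2-fold higher in PS19, with log2 ratios of 1.66 and 1.79, and 74.3% of the 713 names compared were too. The background in the other direction was 0.421%, and neither member was there. The median log2 ratio of all 713 names was 1.24. Scaled to reads outside rRNA, neither was 2-fold higher or lower, as against 3.51% and 2.66% of names. On that scale RLTR4_MM-int had a log2 ratio of 0.43, above 84.6% of names, and MMVL30-int one of 0.68, above 91.9% of names, with a median of 0.07 over all names. Both members thus sat in the upper part of the distribution without being at its edge.

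The ratio of RLTR4_MM-int was next set against other retroviral families. Per reads outside rRNA, the PS19 to WT ratio of pooled reads was 1.02 (0.944 to 1.09) for IAP, 1.13 (0.981 to 1.30) for ETn/MusD and 1.11 (1.02 to 1.21) for MERVL. Relative to IAP reads, RLTR4_MM-int was 1.33-fold higher in PS19 than in WT (exact conditional interval 1.18 to 1.499). Relative to MERVL it was 1.21-fold higher (1.07 to 1.38), and relative to ETn/MusD 1.20-fold higher (1.01 to 1.42). All 3 intervals exclude equality on counting error alone. How much 2 libraries of one genotype would differ in this ratio is unknown.

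The 32 other class I names fixed for comparison included GLN, RLTR1, RLTR5, RLTR23, RLTR24, RLTR41, LTRIS and the Y-linked family MURVY. Of these, 18 passed the filter, and 15 were at least 2-fold higher in PS19 per library total and 0 lower. Over all 713 names compared, the shares were 74.3% and 0.421%. Per reads outside rRNA, 0 of the 18 were past 2-fold, beside 3.51% of all names higher and 2.66% lower. On that scale 14 of the 18 lay above 0, and the median log2 ratio of the 18 was 0.18, against 0.07 over all names. All 32 names pooled were 1.17-fold higher in PS19 per reads outside rRNA (1.06 to 1.29). That interval excludes no change on counting error alone and overlaps that of RLTR4_MM-int (1.23 to 1.48). The 5 relatives with the most reads were RLTR24, RLTR23, LTRIS2, RLTR1B and RLTR1B-int. RLTR24 had 25, 143 and 60 reads in PS19 ZBP1, PS19 ZNA and WT ZNA, and its PS19 to WT ratio in ZNA was 1.12 per reads outside rRNA (0.825 to 1.54). RLTR23 had 44, 127 and 55 reads and a ratio of 1.09 (0.787 to 1.52). RLTR1B, an LTR, had 28, 117 and 54 reads and a ratio of 1.02 (0.733 to 1.44). These 3 intervals include no change. LTRIS2 had 35, 140 and 40 reads and a ratio of 1.65 (1.15 to 2.41). RLTR1B-int had 33, 113 and 30 reads and a ratio of 1.77 (1.18 to 2.75), so that LTRIS2 and the internal name RLTR1B-int were higher in PS19 by more than counting error.

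Within PS19, the pull-downs with the 2 antibodies were then compared. RLTR4_MM-int was 2.82-fold lower in the ZBP1 library per library total (2.49 to 3.20) and 1.39-fold lower per reads outside rRNA (1.23 to 1.58). MMVL30-int, on 9 and 54 reads, was 2.93-fold lower per library total (1.43 to 6.75) and 1.45-fold lower per reads outside rRNA (0.709 to 3.34), with an interval that includes no change on the second scale. The pooled VL30 names were 2.41-fold lower per library total (1.34 to 4.63) and 1.19-fold lower per reads outside rRNA (0.663 to 2.29). The 7 members other than RLTR4_MM-int, pooled on 24 and 90 reads, were 1.83-fold lower per library total (1.16 to 3.005) and 1.11-fold higher per reads outside rRNA (0.673 to 1.75). RLTR4_MM-int holds most reads of the 8 names, so their pooled level is close to its own. The interval of the other 7 on the second scale includes no change and also the RLTR4_MM-int ratio of 0.718. A difference between them and RLTR4_MM-int was thus not shown. The PS19 ZNA library takes part in both comparisons, so a high level in that library alone enters the ratio of each.

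MuRRS and the LTR names had too few reads to show a direction. The 2 MuRRS names, with 8 reads in ZBP1 and 14 in ZNA, were 1.17-fold higher per library total (0.425 to 2.99) and 2.37-fold higher per reads outside rRNA (0.861 to 6.05). MuRRS4-int alone, with 6 and 7 reads, was 1.76-fold higher (0.487 to 6.10) and 3.55-fold higher (0.986 to 12.3) on these scales. The 2 LTR members, with 5 and 13 reads, were at 0.788 of the ZNA library per library total (0.2199 to 2.35) and 1.59-fold higher per reads outside rRNA (0.445 to 4.76). Each of these 6 intervals includes no change, so a difference in either direction was not detectable at this depth.

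Over all names, per library total, ZBP1 was at least 2-fold below ZNA for 50.1% of the 682 compared and at least 2-fold above it for 0.293%. RLTR4_MM-int and MMVL30-int were both among the lower ones, with log2 ratios of -1.49 and -1.41 and a median over all names of -1.002. Scaled to reads outside rRNA, 7.92% of names were at least 2-fold lower and 8.21% higher, and neither member was in either group. RLTR4_MM-int then had a log2 ratio of -0.48, above 28.3% of names, and MMVL30-int had one of -0.48, above 27.7% of names. The median over all names was -0.05. Both members lay in the lower part of a distribution that was broader than in the genotype comparison, with quartiles of -0.52 and 0.47 against -0.14 and 0.29. The ZBP1 library had 74474 reads outside rRNA and WT ZNA had 145372. The part of counting error in the broader spread was not tested.

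Set against other families, RLTR4_MM-int had a ZBP1 to ZNA ratio close to that of ETn/MusD and below those of IAP and MERVL. Relative to ETn/MusD reads it was 0.972 (0.771 to 1.23). Relative to IAP it was 0.548 (0.471 to 0.636), and relative to MERVL 0.634 (0.540 to 0.744). Per reads outside rRNA, IAP reads were 1.31-fold higher in the ZBP1 library (1.20 to 1.43) and MERVL reads 1.13-fold higher (1.02 to 1.25), whereas ETn/MusD reads were 1.35-fold lower (1.12 to 1.65). The 32 related class I names pooled were at 1.05 of the ZNA library (0.929 to 1.19) on that scale, close to no change. Of the 16 that passed the filter, 6 were at least 2-fold lower and 0 higher per library total, and 2 lower and 0 higher per reads outside rRNA. Over all 682 names compared, the shares were 50.1% lower and 0.293% higher per library total, and 7.92% and 8.21% per reads outside rRNA.

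**Figure D3:**
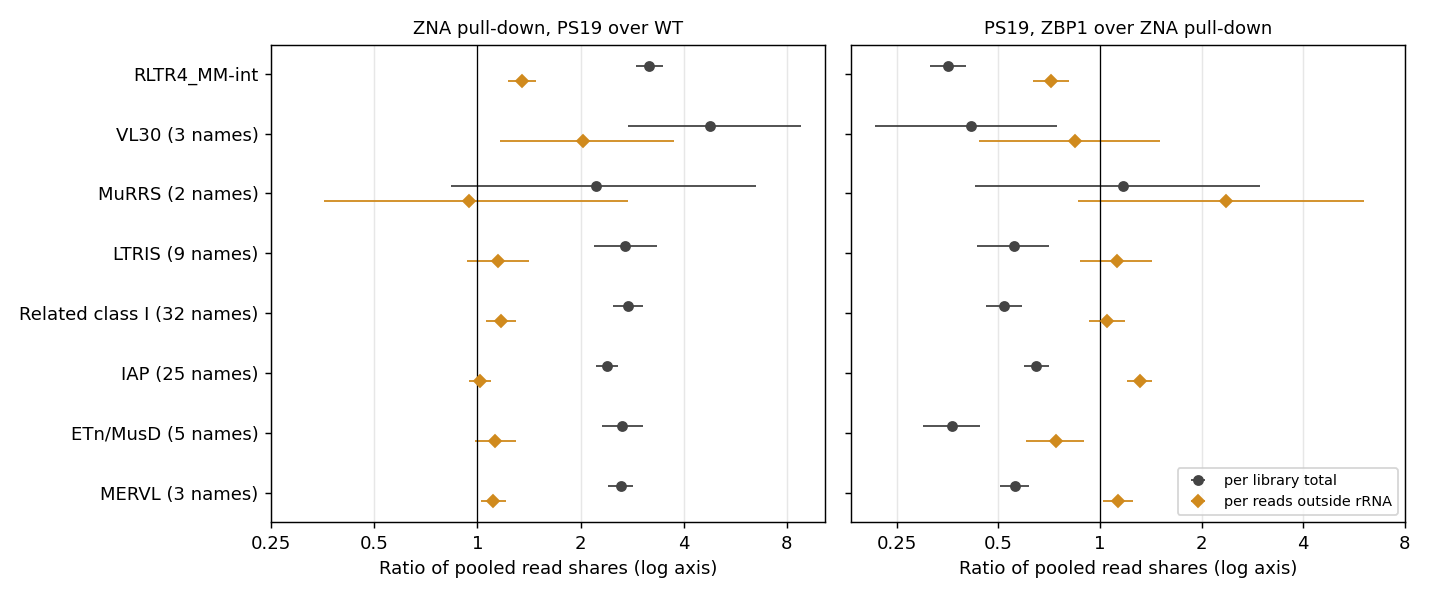
Ratio of pooled read shares for RLTR4_MM-int, VL30, MuRRS, LTRIS, the related class I names and 3 other retroviral families, on log axes, PS19 over WT in ZNA (left) and ZBP1 over ZNA in PS19 (right). Circles are per library total, diamonds per reads outside rRNA, and bars are exact 95% counting intervals. Per reads outside rRNA, RLTR4_MM-int lies at 1.35 on the left and 0.718 on the right, while IAP lies at 1.02 and 1.31.

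VL30 and MuLV were not separable from each other in how they changed between libraries. VL30 reads stood at 0.0461 of MuLV reads in PS19 ZBP1 (0.0249 to 0.0785), 0.0394 in PS19 ZNA (0.0305 to 0.0501) and 0.0263 in WT ZNA (0.0149 to 0.0430). The 3 intervals overlapped. The ratio of VL30 to MuLV in WT ZNA was 0.667 of that in PS19 ZNA (0.358 to 1.17), and that in PS19 ZBP1 was 1.17-fold higher than in PS19 ZNA (0.5995 to 2.13). With 14 to 69 VL30 reads per library, these intervals still allow a difference of more than 2-fold.

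Profiles over the 3 libraries were compared by the distance between log2 CPM values centred on their mean, among 410 names outside rRNA and outside the members with at least 100 reads in all and a read in each library. RLTR12B was nearest to RLTR4_MM-int (distance 0.03), followed by RLTR21 and RLTR13B1 (both 0.06). BGLII_B (0.10), MLT1E3 (0.13) and RLTR28 (0.14) were nearest to MMVL30-int. Such profiles were common, since 206 of the 410 names lay within 0.5 of RLTR4_MM-int and 84 within 0.5 of MMVL30-int. For MuRRS-int the nearest names were RLTR13D5, MER74A and Tigger17a, for RLTR4_Mm they were U3, 4.5SRNA and RLTR1B-int, and for RLTR6_Mm they were 4.5SRNA, (AC)n and U3. Those 3 members had 1 to 7 reads per library, and their neighbours rest on counting error of that size. MuLV-int had no read and no profile.

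**Figure D4:**
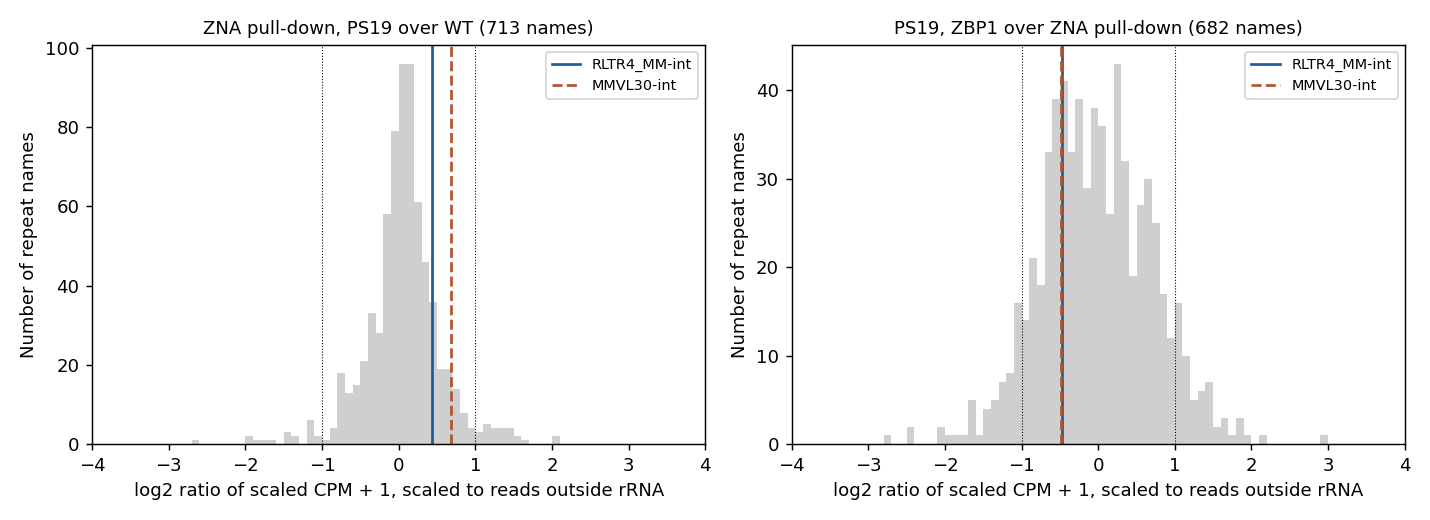
Number of repeat names by log2 ratio of scaled CPM plus 1, after scaling to reads outside rRNA, for PS19 over WT in ZNA (left) and ZBP1 over ZNA in PS19 (right). The solid line is RLTR4_MM-int, the dashed line MMVL30-int, and the dotted lines mark 2-fold. Both members lie right of the centre on the left side, at 0.43 and 0.68, and left of the centre on the right side, both at -0.48.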

How the data were processed

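Hippocampal RNA immunoprecipitation libraries were analysed from deposited tables of read counts per repeat name, given as whole numbers. The submitters' processing notes name Trim Galore 0.6.5, STAR 2.5.3a, featureCounts 2.0.4 and the build mm39. The repeat annotation, strand setting and handling of reads with several mapping positions are not given in the sources used here. Groups came from the sample titles, with 1 library each, so no model test or p-value was possible. Ratios of shares carry exact conditional (Clopper-Pearson) 95% intervals, ratios of ratios the interval of Fisher's conditional odds ratio, and shares among members Wilson intervals. All cover counting error only, and reads without molecular identifiers are not independent molecules. For the log2 ratios over all names, library sizes were the totals, or the reads outside rRNA brought to the same geometric mean, with the filter always on totals. TMM factors were an alternative. The calculation was tested on simulated data. Members, lists and rules were chosen with earlier results of these data known. All members are named, with 3 nearest profiles for each listed main member; RLTR4_MM-int was added to that rule after its reads were seen. Related class I names are given by counts and the 5 with the most reads. The GLN, RLTR6 and LTRIS relatives are also shown in the ratio of internal to LTR reads. No sequence of a repeat was used here. TMM factors came from edgeR 4.0.16 under R 4.3.3. Everything else was computed in Python 3.11.15 with scipy 1.17.1, pandas 2.3.3 and numpy 2.4.6, and drawn with matplotlib 3.10.9.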

Additional observations from a re-analysis of the deposited data

How the results depend on the processing

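The pooled log2 ratio of PS19 over WT in ZNA was 1.69 per library total, 0.45 per reads outside rRNA and 0.46 under TMM, and that of ZBP1 over ZNA was -1.46, -0.44 and -0.60. LTR names alone gave 2.85 and -0.34. Without RLTR4_MM-int, an alternative chosen after seeing the data, the values were 2.06 and -0.87 per library total, and 0.82 and 0.14 per reads outside rRNA; the latter, a change of sign, has an interval of -0.57 to 0.81. Under TMM they were 0.83 and -0.012. The 2 members at least 2-fold higher in PS19, and the 2 at least 2-fold lower in ZBP1, became 0 under both other scalings and 0 at 4-fold. Without a filter, 6 members were at least 2-fold higher in PS19 per library total. Those beyond RLTR4_MM-int and MMVL30-int had 6 to 9 reads in PS19 ZNA and 0 to 2 in WT ZNA. With the filter, 74.3% of all 713 names were 2-fold higher on that scale, and the share without it was not computed. MuRRS-int changed sign in PS19 over WT (-0.60 per reads outside rRNA, -0.59 under TMM), and in ZBP1 over ZNA so did MuRRS-int and RLTR4_Mm (each 0.24 and 0.087). With LTRIS names on the LTR side, the internal to LTR ratio of all members was 3.57, 5.57 and 4.81 in PS19 ZBP1, PS19 ZNA and WT ZNA. With RLTR6B and RLTR6C names the VL30 ratio was 1.62 in PS19 ZNA and 1 in WT ZNA. The directions of RLTR4_MM-int and MMVL30-int held under all 3 scalings. For MMVL30-int, though, the intervals per reads outside rRNA and under TMM include no change in both comparisons. No paired analysis was possible because each group has 1 library, and for the same reason no library could be left out. Depth limits 6 of the 8 members, each with under 20 reads in all.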
